A study of Homo sapiens with 6 samples.

Results

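The transforming growth factor beta (TGF-beta), bone morphogenetic protein (BMP) and activin pathway was followed through 43 genes in MDA-MB-231, a human breast cancer cell line of the basal-like, mesenchymal type. The genes were chosen by name from what is known of the pathway, but with earlier results of these data known. They were sorted by role into ligands, proteins that hold TGF-beta latent, secreted antagonists, receptors, SMADs, inhibitors and response genes. A probe belonged to a gene when the file gave a RefSeq transcript of that gene for it. All 43 genes had at least 1 probe, 56 probes in all, of which 41 were kept as measurable. These stood for 32 genes, out of 11974 measurable genes among the 21743 with a named probe on the array.

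The cells received a precursor of hsa-miR-205-5p, of hsa-miR-214-3p or of a scrambled miRNA by transfection, and 2 samples per group were each hybridized in 1 dye to an Agilent SurePrint G3 Human GE array. The precursors were used at 30 nM and RNA was taken 72 h after transfection. All 3 groups are the same line and went through the same transfection, so the scrambled samples carry its effect as well. With a single line and an introduced precursor, the values are differences between transfected groups of that line. The labels do not say whether the 2 samples of a group came from separate cultures. The p-values below measure only the spread between these samples, which may be technical. The mature miRNAs were not analysed here, so the values hold no check of the transfection itself.

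Ligands of this family are secreted as dimers. TGF-beta is held in a latent complex, while BMPs and activins are kept from their receptors by secreted binding proteins such as noggin and follistatin. A bound ligand brings together type I and type II receptor kinases, which phosphorylate SMAD2 and SMAD3 for TGF-beta and activin, or SMAD1, SMAD5 and SMAD9 for BMPs. These join SMAD4, enter the nucleus and change transcription, and SMAD6 and SMAD7 feed back on the receptors. In breast cancer cells the TGF-beta branch is best known for its link with epithelial-mesenchymal transition and invasion, and the ID genes are classical targets of the BMP branch.

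A miRNA is loaded into Argonaute and pairs with messenger RNA mainly through its seed. The mature sequences of the introduced miRNAs are shown because they are what sets the treated groups apart. They are from RefSeq (GRCh38.p14), with bases 2 to 8, the seed, in capitals. hsa-miR-205-5p is encoded on the plus strand at chr1:209432166-209432187, and hsa-miR-214-3p on the minus strand at chr1:172138816-172138837.
hsa-miR-205-5p: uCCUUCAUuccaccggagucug
hsa-miR-214-3p: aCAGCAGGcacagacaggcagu
The seeds differ. Among 2370 mature human miRNA names in the table, 0 others carried the hsa-miR-205-5p seed and 2 others, hsa-miR-3619-5p and hsa-miR-761, carried that of hsa-miR-214-3p.

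Levels below are normalized log2 signals, that is log2 of the processed spot intensity minus the array's 75th percentile, so 0 is the 75th percentile of the array. Probes bind with different strengths, so levels were compared between arrays for 1 probe and not between genes. A gene is given by its brightest kept probe, and a probe was kept when some group had it well above background on both its arrays. A difference was called when limma's moderated test gave a Benjamini-Hochberg adjusted p under 0.05 over all kept probes and the change was at least 2-fold. Between 35.4% and 42.2% of the 58717 spots per array were well above background, lowest in the hsa-miR-205-5p samples (37.8% and 35.4%), then hsa-miR-214-3p (39.5% and 38.5%) and highest in the scrambled samples (40.7% and 42.2%), and the part of this order in the results was not tested. Over all kept probes the scrambled arrays differed from each other by a root mean square of 0.67 on the log2 scale, and scrambled replicate 2 lay nearer to the hsa-miR-214-3p arrays (0.58 and 0.63) than to scrambled replicate 1. Over the 32 pathway genes this was not so, with 0.50 between the scrambled arrays and 0.93 and 0.90 from scrambled replicate 2 to the hsa-miR-214-3p arrays. All 10 markers of MDA-MB-231 (vimentin, CAV1, AXL, CD44 and others) were well above background on all 6 arrays. In each comparison 1 of the 10 was called. Of all genes, 12.8% were called with hsa-miR-205-5p and 3.12% with hsa-miR-214-3p against scrambled, and 20.5% between the precursors. FOSL1, a transcription factor subunit, was 2.18-fold lower with hsa-miR-205-5p than with scrambled (limma, adjusted p = 0.0180) and 2.14-fold lower than with hsa-miR-214-3p (adjusted p = 0.0122). CAV2, a caveolin, was 2.25-fold higher with hsa-miR-214-3p than with scrambled (adjusted p = 0.0345). The luminal markers ESR1, PGR and FOXA1 and the markers PTPRC, ALB and INS of other cell types had no kept probe. GATA3, CDH1 and PECAM1 had one. CDH1, the epithelial cadherin, was 3.90-fold higher with hsa-miR-205-5p than with scrambled (limma, adjusted p = 0.0080). The probe of PECAM1, an endothelial marker, was at least 2.25-fold lower with hsa-miR-205-5p than with scrambled. Since this probe was kept only through the scrambled arrays, the value is given with no test. The part of these markers in the results below was not tested.

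Of the 32 measurable pathway genes, 3 were lower and 3 higher with hsa-miR-205-5p than with scrambled, where 7.98% of all 11974 genes were called lower and 4.78% higher. With hsa-miR-214-3p 1 was lower and 2 were higher, against 2.03% and 1.09% of all genes. Since the genes were chosen with earlier results of these data known, these shares describe the list and are no test of the pathway. FSTL1 was called higher with both precursors. The other calls were INHBB and NOG higher and BMP4, ID2 and ID3 lower with hsa-miR-205-5p, and FST higher and TSC22D1 lower with hsa-miR-214-3p. Both comparisons use the same 2 scrambled arrays, so their values are given side by side and not as separate evidence. The median log2 fold change of the 32 genes was 0.09 with hsa-miR-205-5p, where that of all genes was 0.08, and 0.27 with hsa-miR-214-3p, where that of all genes was −0.01. Arrays of treated and scrambled cells did not overlap for 20 of the 32 genes with hsa-miR-205-5p and for 25 with hsa-miR-214-3p, where this held for 65.2% and 58.5% of all genes. The calls lay among the ligands, the secreted antagonists and the response genes. Of the 17 measurable receptors, SMADs, inhibitors and latent TGF-beta binding proteins, limma called 0 against scrambled with either precursor. Of all genes, 12.8% were called in either direction with hsa-miR-205-5p and 3.12% with hsa-miR-214-3p. At an unadjusted p under 0.05 with no limit on the fold change, 3 of those 17 passed with hsa-miR-205-5p and 5 with hsa-miR-214-3p, where 39.5% and 24.2% of all genes did. Both counts include ACVRL1, which was kept only through the scrambled arrays. The uncalled differences given below are loose: leaving out 1 array moved 20 of 26 by over 1.5 times with hsa-miR-205-5p (18 of them by a scrambled array), 19 of 29 with hsa-miR-214-3p (18 by a scrambled array) and 10 of 28 between the precursors. In such bulk samples a change in the number of cells that express a gene and a change in RNA per cell cannot be told apart.

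**Figure D1:**
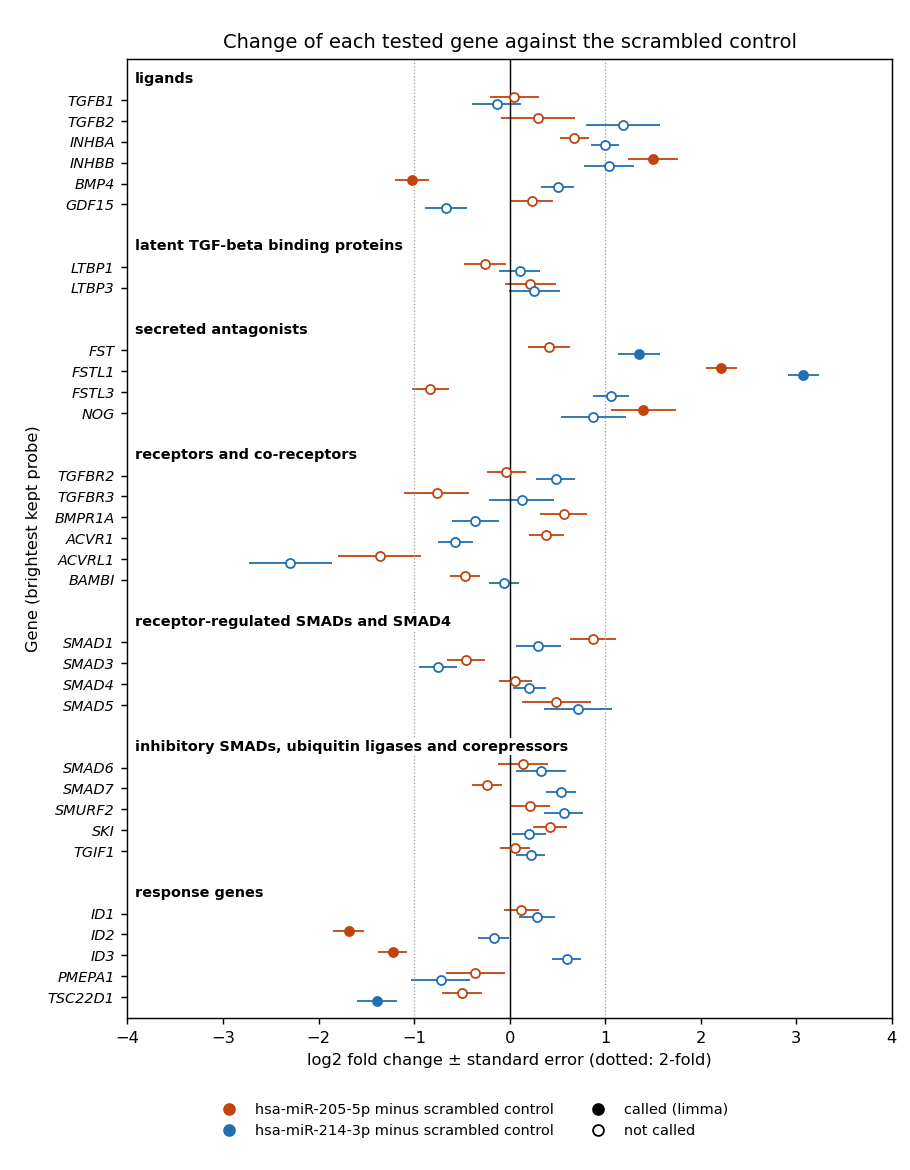
Log2 fold change against scrambled (x axis, ± the standard error from limma, 2 arrays per group) of the 32 measurable pathway genes by role (y axis) for hsa-miR-205-5p (orange) and hsa-miR-214-3p (blue), with filled points for calls and dotted lines at 2-fold. FSTL1 lies farthest to the right with both precursors, at 2.21 and 3.08, and BMP4, ID2 and ID3 have a filled point on the left for hsa-miR-205-5p and an open one for hsa-miR-214-3p. ACVRL1, at the far left, did not clear background with either precursor, so its points are measured differences and not levels.

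Of the 4 measurable secreted antagonists, FSTL1 and NOG were called higher with hsa-miR-205-5p and FSTL1 and FST with hsa-miR-214-3p. Of all genes, 4.78% and 1.09% were called higher. FSTL1, a secreted glycoprotein with a follistatin-like domain that has been described to bind BMP4, stood at 4.88 and 5.09 on the scrambled arrays, 7.17 and 7.22 with hsa-miR-205-5p and 8.01 and 8.10 with hsa-miR-214-3p. In processed intensity before scaling, this was 1476 and 1969 with scrambled, 6007 and 5222 with hsa-miR-205-5p and 12469 and 10071 with hsa-miR-214-3p. No array of a group overlapped those of another, and the order was scrambled, then hsa-miR-205-5p and then hsa-miR-214-3p. The log2 fold change was 2.21 ± 0.16 (SE) for hsa-miR-205-5p, or 4.64-fold (limma, adjusted p = 0.0080), and 3.08 ± 0.16 for hsa-miR-214-3p, or 8.43-fold (adjusted p = 0.0251). The latter was the highest log2 fold change of the 11974 genes in that comparison. FSTL1 was listed with earlier results of these data known, so this rank is no test of the pathway. The fold change with hsa-miR-214-3p stayed between 2.97 and 3.18 when any 1 array was left out, but its adjusted p rose to 0.179 or 0.243 without hsa-miR-214-3p replicate 1 or 2, to 0.0751 without either hsa-miR-205-5p array and to 0.0532 without scrambled replicate 1. The call with hsa-miR-205-5p was lost only without hsa-miR-205-5p replicate 2 (adjusted p = 0.0559), among the 6 fits that left out 1 array.

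FST encodes follistatin, which binds activins and takes them out of reach of their receptors. Its signal was 3.44 and 3.96 with scrambled, 4.21 and 4.03 with hsa-miR-205-5p and 5.06 and 5.05 with hsa-miR-214-3p. Both hsa-miR-214-3p arrays were above all other arrays, by a log2 fold change of 1.35 ± 0.22 over scrambled (2.56-fold, limma, adjusted p = 0.0472). With hsa-miR-205-5p the difference was 0.41 ± 0.22 (adjusted p = 0.232), and FST was not called; it was 0.15 and 0.68 without scrambled replicate 1 and 2 and 0.02 under scaling to the array median. The hsa-miR-214-3p call lay close to the threshold: it was kept without scrambled replicate 2 (adjusted p = 0.0233) and lost without any other array, with adjusted p between 0.0582 (scrambled replicate 1) and 0.317 (hsa-miR-214-3p replicate 2), 0.278 without hsa-miR-214-3p replicate 1 and 0.098 without either hsa-miR-205-5p array. It was lost under scaling to the array median as well (1.19, adjusted p = 0.0801).

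FSTL3, a follistatin relative that also binds activins, stood at 4.60 and 4.20 with scrambled, 3.54 and 3.61 with hsa-miR-205-5p and 5.46 and 5.46 with hsa-miR-214-3p. The groups lay apart on either side of the control: the hsa-miR-205-5p arrays were below both scrambled arrays and the hsa-miR-214-3p arrays above them. Neither difference from scrambled was called. It was −0.83 ± 0.19 for hsa-miR-205-5p (1.78-fold, adjusted p = 0.0382, under the 2-fold limit) and 1.06 ± 0.19 for hsa-miR-214-3p (2.08-fold, limma, adjusted p = 0.0556). NOG encodes noggin, an extracellular BMP antagonist, and stood at 3.49 and 2.51 with scrambled, 4.49 and 4.30 with hsa-miR-205-5p and 3.96 and 3.78 with hsa-miR-214-3p. The scrambled arrays were nearly 1 log2 unit apart, and both treated groups were above them. NOG rose by 1.40 ± 0.34 with hsa-miR-205-5p (2.64-fold, limma, adjusted p = 0.0437). With hsa-miR-214-3p the difference was 0.88 ± 0.34 (adjusted p = 0.211), or 1.37 without scrambled replicate 1 and 0.39 without scrambled replicate 2. The NOG call was kept only without scrambled replicate 1 (log2 fold change 1.89, adjusted p = 0.00835). The difference was 0.91, under the 2-fold limit, without scrambled replicate 2, and the adjusted p was 0.151 or 0.133 without hsa-miR-205-5p replicate 1 or 2 and 0.0986 without either hsa-miR-214-3p array. Scaling to the array median ended it too (1.01, adjusted p = 0.0882). GREM1, another BMP antagonist, had no kept probe.

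**Figure D2:**
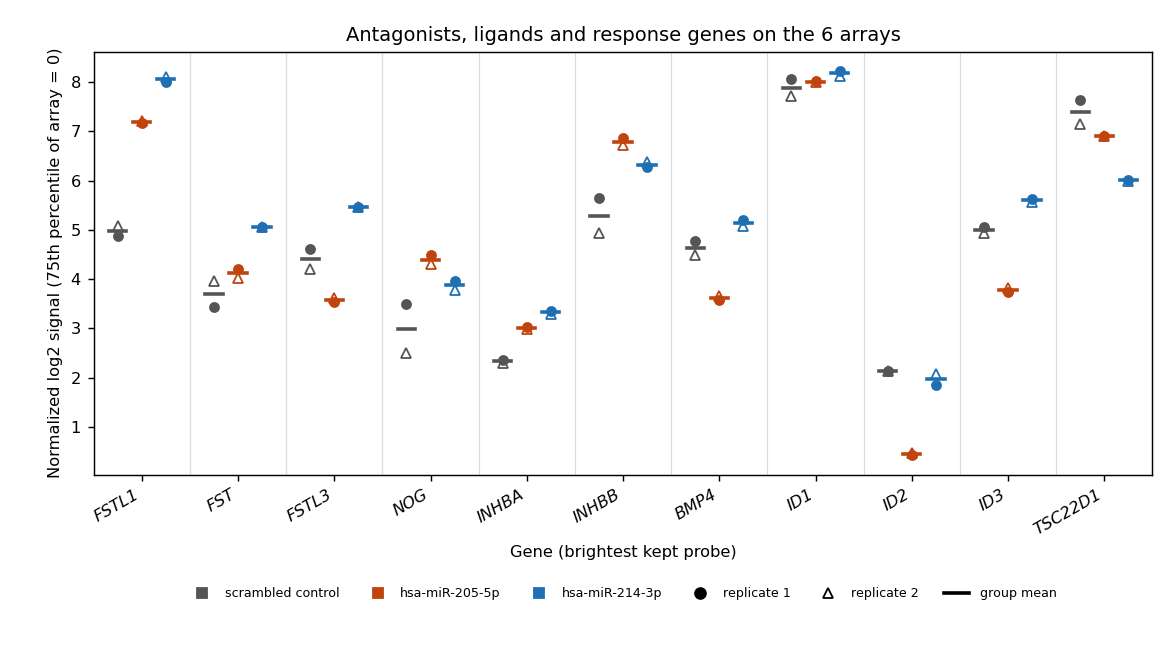
Normalized log2 signal (y axis, 0 is the array's 75th percentile) of 11 antagonists, ligands and response genes (x axis) on each of the 6 arrays, with scrambled in grey, hsa-miR-205-5p in orange, hsa-miR-214-3p in blue, circles for replicate 1, triangles for replicate 2 and bars for group means. The FSTL1 points form 3 separate levels near 5, 7 and 8, ID2 and ID3 are low on the hsa-miR-205-5p arrays, and ID1 lies near 8 in every group.

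Of the 6 measurable ligands, BMP4 was called lower and INHBB higher with hsa-miR-205-5p, where 7.98% and 4.78% of all genes were. With hsa-miR-214-3p limma called 0, where 3.12% of all genes were called in either direction. There 5 ligands had an unadjusted p under 0.05, where 24.2% of all genes did. BMP4, which signals through SMAD1 and SMAD5, stood at 4.77 and 4.50 with scrambled, 3.57 and 3.66 with hsa-miR-205-5p and 5.20 and 5.08 with hsa-miR-214-3p. The hsa-miR-205-5p arrays were the lowest and the hsa-miR-214-3p arrays the highest. BMP4 fell by 1.02 ± 0.17 on the log2 scale with hsa-miR-205-5p (2.03-fold, limma, adjusted p = 0.0190). The difference with hsa-miR-214-3p was 0.50 ± 0.17 (adjusted p = 0.176). The fall was just past the 2-fold limit. It was no longer called without hsa-miR-205-5p replicate 1 or 2 (adjusted p = 0.0853 and 0.0841), without either hsa-miR-214-3p array (0.0681) or without scrambled replicate 1 (log2 fold change −0.88), and was called without scrambled replicate 2 (−1.16, adjusted p = 0.023).

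INHBB encodes the beta B subunit found in activin B and inhibin B. It stood at 5.64 and 4.94 with scrambled, 6.86 and 6.72 with hsa-miR-205-5p and 6.28 and 6.37 with hsa-miR-214-3p, so both treated groups lay above both scrambled arrays. It rose by 1.503 ± 0.26 with hsa-miR-205-5p (2.83-fold, limma, adjusted p = 0.0199). With hsa-miR-214-3p the difference was 1.04 ± 0.26 (2.05-fold, adjusted p = 0.102). The hsa-miR-205-5p call was kept without either scrambled array and lost without hsa-miR-205-5p replicate 1 or 2 (adjusted p = 0.084 and 0.0827) or either hsa-miR-214-3p array (0.0615). INHBA, the beta A subunit of activin A, stood at 2.37 and 2.30 with scrambled, 3.03 and 2.99 with hsa-miR-205-5p and 3.36 and 3.30 with hsa-miR-214-3p. The groups did not overlap, and the differences were 0.68 ± 0.15 (1.60-fold, adjusted p = 0.0345) and 0.997 ± 0.15 (1.996-fold, adjusted p = 0.0405), both under the 2-fold limit and so not called.

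TGFB1, the most studied TGF-beta ligand, stood at 3.09 and 2.40 with scrambled, 2.87 and 2.72 with hsa-miR-205-5p and 2.61 and 2.62 with hsa-miR-214-3p. All treated arrays lay between the scrambled ones, with differences of 0.05 ± 0.26 and −0.14 ± 0.26 (limma, adjusted p = 0.906 and 0.792), and the sign of the first turned to −0.34 under scaling to the array median. Leaving out scrambled replicate 2 gave −0.29 for hsa-miR-205-5p and leaving out scrambled replicate 1 gave 0.21 for hsa-miR-214-3p. TGFB2 had differences of 0.30 and 1.19 (adjusted p = 0.600 and 0.158), with hsa-miR-205-5p arrays at −0.07 and −1.21, and the first turned to −0.27 without hsa-miR-205-5p replicate 1. GDF15, a stress-induced distant relative, had differences of 0.24 and −0.67 (adjusted p = 0.468 and 0.162), the first at −0.15 under scaling to the array median. BMP2 had no kept probe. Of the proteins that tether latent TGF-beta, LTBP1 and LTBP3 had differences between −0.26 and 0.26 from scrambled, and LTBP2 had no kept probe. LTBP1 and LTBP3 had 0 calls, where 12.8% and 3.12% of all genes were called. A second, dimmer LTBP1 probe did not clear background on the hsa-miR-205-5p arrays, where it lay at least 1.36-fold under scrambled. It was kept only through the hsa-miR-214-3p arrays, so no test is given.

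Of the 6 measurable receptors and co-receptors, limma called 0 against scrambled with either precursor. Of all genes, 12.8% were called with hsa-miR-205-5p and 3.12% with hsa-miR-214-3p. With so few receptors, 0 is near that share. TGFBR2, the type II TGF-beta receptor, stood at 6.49 and 6.91 with scrambled, 6.73 and 6.60 with hsa-miR-205-5p and 7.09 and 7.27 with hsa-miR-214-3p. The hsa-miR-205-5p arrays lay between the scrambled ones and the hsa-miR-214-3p arrays above them. The differences were −0.04 ± 0.20 (limma, adjusted p = 0.914) and 0.48 ± 0.20 (adjusted p = 0.243), and the first turned to 0.17 without scrambled replicate 2 and to 0.03 without hsa-miR-205-5p replicate 2. BMPR1A and ACVR1, BMP type I receptors, had differences of 0.57 and 0.38 with hsa-miR-205-5p and −0.36 and −0.57 with hsa-miR-214-3p. The BMPR1A values were 0.86 and −0.07 without scrambled replicate 1 and 0.28 and −0.65 without scrambled replicate 2. Another kept BMPR1A probe was at 0.24 with hsa-miR-205-5p and 0.34 with hsa-miR-214-3p, and a further one at 0.31 and −0.52. The mean of the kept BMPR1A probes was 0.37 and −0.18. A second, dimmer ACVR1 probe was kept only through the hsa-miR-214-3p arrays, so no test of it is given. It stood at −2.55 and −0.42 with scrambled and −0.46 and −0.04 with hsa-miR-214-3p, and it did not clear background on the hsa-miR-205-5p arrays. The mean of both probes turned the ACVR1 differences to −0.07 and 0.33. TGFBR3 (betaglycan) and BAMBI, a decoy receptor without kinase activity, had differences of −0.76 and −0.47 with hsa-miR-205-5p and of 0.13 and −0.06 with hsa-miR-214-3p, and the latter turned to −0.26 and 0.03 without scrambled replicate 1. ACVRL1, the endothelial type I receptor ALK-1, was well above background only on the scrambled arrays, at least 1.27-fold over the hsa-miR-214-3p arrays. Its probe was kept only through the scrambled arrays, so no test is given. TGFBR1, the type I TGF-beta receptor, BMPR2, ACVR1B, ACVR2A and ENG had no kept probe.

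Of SMAD1, SMAD3, SMAD4 and SMAD5, limma called 0 against scrambled as well. Of all genes, 12.8% were called with hsa-miR-205-5p and 3.12% with hsa-miR-214-3p, so with few SMADs 0 is near that share. SMAD3, a carrier of the TGF-beta and activin signal, stood at 5.53 and 5.11 with scrambled, 4.80 and 4.94 with hsa-miR-205-5p and 4.57 and 4.57 with hsa-miR-214-3p. Both treated groups were below both scrambled arrays, by −0.45 ± 0.20 (limma, adjusted p = 0.162) and −0.75 ± 0.20 (adjusted p = 0.110). SMAD4, the partner of all receptor-regulated SMADs, stood at 3.58 and 3.75 with scrambled, 3.84 and 3.60 with hsa-miR-205-5p and 3.84 and 3.90 with hsa-miR-214-3p. Its differences were 0.06 ± 0.17 (adjusted p = 0.816) and 0.21 ± 0.17 (adjusted p = 0.522). The first of these turned to −0.33 under scaling to the array median, to −0.06 without hsa-miR-205-5p replicate 1, to −0.02 without scrambled replicate 1 and to −0.14 with all kept SMAD4 probes averaged, and the second to −0.16 with the probes averaged. SMAD1 and SMAD5, the carriers of the BMP signal, had differences of 0.87 and 0.49 with hsa-miR-205-5p (adjusted p = 0.0594 and 0.361) and of 0.30 and 0.71 with hsa-miR-214-3p. Without scrambled replicate 1 the SMAD5 differences were −0.045 and 0.18, and without scrambled replicate 2 they were 1.02 and 1.25. SMAD2 had no kept probe. The 5 measurable inhibitors, SMAD6, SMAD7, the ubiquitin ligase SMURF2 and the corepressors SKI and TGIF1, had differences between −0.24 and 0.43 with hsa-miR-205-5p and between 0.20 and 0.56 with hsa-miR-214-3p, and 0 of them were called. At an unadjusted p under 0.05, 0 and 2 of these 5 passed, against 39.5% and 24.2% of all genes. SMURF1 and SKIL had no kept probe.

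The response genes split. ID1, ID2 and ID3 encode helix-loop-helix proteins without a DNA-binding region that hold back partner transcription factors. ID2 stood at 2.13 and 2.13 with scrambled, 0.42 and 0.47 with hsa-miR-205-5p and 1.86 and 2.07 with hsa-miR-214-3p. ID3 stood at 5.06 and 4.94 with scrambled, 3.73 and 3.82 with hsa-miR-205-5p and 5.63 and 5.57 with hsa-miR-214-3p. ID1 stood at 8.07 and 7.71 with scrambled, 8.02 and 7.9995 with hsa-miR-205-5p and 8.22 and 8.13 with hsa-miR-214-3p. Thus ID2 and ID3 were lowest on both hsa-miR-205-5p arrays, while the hsa-miR-205-5p arrays of ID1 lay between the scrambled ones. ID2 fell by 1.68 ± 0.16 (3.21-fold, limma, adjusted p = 0.0080) and ID3 fell by 1.22 ± 0.15 (2.33-fold, adjusted p = 0.0106) with hsa-miR-205-5p. The difference of ID1 was 0.12 ± 0.18 (adjusted p = 0.657), and its sign turned under normexp (−0.10), quantile normalization (−0.13), scaling to the array median (−0.27), in the authors' table (−0.12) and without scrambled replicate 2 (−0.06). With hsa-miR-214-3p the differences were −0.17, 0.60 and 0.29 for ID2, ID3 and ID1, and 0 were called. A second, dimmer ID2 probe stood at 1.12 and 0.31 with scrambled and at −1.09 and −1.96 with hsa-miR-205-5p, where 1 of the 2 arrays was well above background, so no exact difference is given. Under normexp ID2 fell by 1.0017 on the log2 scale, just past the 2-fold limit. The ID2 call was lost only without hsa-miR-205-5p replicate 2 (adjusted p = 0.0561) and the ID3 call only without hsa-miR-205-5p replicate 1 or 2 (0.0527 and 0.0621), among the 6 fits that left out 1 array.

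TSC22D1, a leucine zipper gene first found as induced by TGF-beta, stood at 7.64 and 7.15 with scrambled, 6.90 and 6.91 with hsa-miR-205-5p and 6.02 and 5.997 with hsa-miR-214-3p. Both treated groups were below both scrambled arrays, and the hsa-miR-214-3p arrays were the lowest. It fell by 1.39 ± 0.21 with hsa-miR-214-3p (2.62-fold, limma, adjusted p = 0.0412). With hsa-miR-205-5p the difference was −0.49 ± 0.21 (adjusted p = 0.152). The paper lists TSC22D1 in the WT1 network, among predicted hsa-miR-214-3p targets that were downregulated on these same samples. The direction of TSC22D1 is therefore not independent evidence. The call was kept without scrambled replicate 2 (adjusted p = 0.0233) and lost without scrambled replicate 1 (0.0533), hsa-miR-214-3p replicate 1 or 2 (0.258 and 0.304) or either hsa-miR-205-5p array (0.0939). PMEPA1, a TGF-beta-induced membrane protein, had differences of −0.36 and −0.72 (adjusted p = 0.432 and 0.247), the second ranging from −0.36 without scrambled replicate 1 to −1.08 without scrambled replicate 2, and the first at −0.72 without scrambled replicate 2 and near 0 without scrambled replicate 1.

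Promoter sequence is shown for FSTL1, which changed most, and for the ID genes, of which ID2 and ID3 fell together and ID1 was not called. The windows are the 250 bases before the RefSeq gene start (GRCh38.p14), 5′ to 3′ on the gene's strand. They were searched on both strands for GGCGCC, a GC-rich motif bound by BMP SMADs that reads the same on both strands, and for CAGAC with its reverse complement GTCTG, the core of the SMAD3 and SMAD4 element. Matches are in capitals, and no matches of the 2 motifs overlapped. FSTL1 is on the minus strand at chr3:120450993-120451242, ID1 on the plus strand at chr20:31605039-31605288, ID2 on the plus strand at chr2:8681806-8682055 and ID3 on the minus strand at chr1:23559502-23559751.
FSTL1: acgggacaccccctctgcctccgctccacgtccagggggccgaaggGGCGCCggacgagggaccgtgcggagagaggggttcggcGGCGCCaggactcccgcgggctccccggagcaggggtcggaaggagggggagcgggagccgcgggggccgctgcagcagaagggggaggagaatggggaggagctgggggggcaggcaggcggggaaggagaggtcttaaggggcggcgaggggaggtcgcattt
ID1: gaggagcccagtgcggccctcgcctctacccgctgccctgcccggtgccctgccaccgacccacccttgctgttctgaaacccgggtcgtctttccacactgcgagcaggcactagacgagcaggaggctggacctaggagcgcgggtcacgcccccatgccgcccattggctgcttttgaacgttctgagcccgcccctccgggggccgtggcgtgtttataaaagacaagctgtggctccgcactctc
ID2: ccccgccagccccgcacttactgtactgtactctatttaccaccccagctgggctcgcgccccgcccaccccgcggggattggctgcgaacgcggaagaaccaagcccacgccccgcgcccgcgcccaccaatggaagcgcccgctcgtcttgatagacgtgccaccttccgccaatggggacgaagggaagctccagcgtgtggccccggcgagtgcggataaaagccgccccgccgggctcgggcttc
ID3: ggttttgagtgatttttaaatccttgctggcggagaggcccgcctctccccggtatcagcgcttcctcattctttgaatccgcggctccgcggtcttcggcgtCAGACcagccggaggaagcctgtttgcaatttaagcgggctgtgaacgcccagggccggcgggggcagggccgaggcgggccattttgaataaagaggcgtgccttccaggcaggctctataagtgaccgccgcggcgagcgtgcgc
FSTL1 held 2 matches of GGCGCC and 0 of CAGAC, ID3 held 1 of CAGAC and 0 of GGCGCC, and ID1 and ID2 held 0 of both. Of 35116 windows of the same length, 16.4% held GGCGCC and 38% held CAGAC or GTCTG. No match says only that these letters are not in this window.

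The precursors were also set directly against each other, which does not use the scrambled arrays for the difference itself. Of the 32 genes, 4 were lower with hsa-miR-205-5p than with hsa-miR-214-3p and 0 were higher, where 11.3% of all genes were lower and 9.18% higher. By limma at adjusted p under 0.05 with no limit on the fold change 7 were lower and 4 higher, where 16% and 17.9% of all genes were. The 4 called genes were FSTL3, ID3, BMP4 and ID2. FSTL3 differed by −1.89 ± 0.19 (3.70-fold, limma, adjusted p = 0.0043), ID3 by −1.82 ± 0.15 (3.53-fold, adjusted p = 0.0038), BMP4 by −1.52 ± 0.17 (2.88-fold, adjusted p = 0.0052) and ID2 by −1.52 ± 0.16 (2.86-fold, adjusted p = 0.0046). The arrays of the 2 precursors did not overlap for 29 of 32 genes, where this held for 80.3% of all genes. The median difference over the 32 genes was −0.17, and over all genes 0.12. Among the 6 fits that left out 1 array, the ID3 call was kept in all (adjusted p of at most 0.0498), while FSTL3 and ID2 were lost without hsa-miR-214-3p replicate 2 (0.0528 and 0.0564) and BMP4 without hsa-miR-214-3p replicate 1 or 2 (0.0534 and 0.0556). Under normexp ID2 was at −0.93, under the 2-fold limit, and not called.

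Genes that differed between the precursors at adjusted p under 0.05 but by less than 2-fold were FST and FSTL1 among the antagonists, GDF15 among the ligands, ACVR1 and BMPR1A among the receptors, SMAD7 among the inhibitors and TSC22D1. FST (−0.94 ± 0.22, limma, adjusted p = 0.0292), FSTL1 (−0.86 ± 0.16, adjusted p = 0.0158) and SMAD7 (−0.77 ± 0.16, adjusted p = 0.0198) were lower with hsa-miR-205-5p. FSTL1 passed the 2-fold limit under normexp, quantile normalization, scaling to the array median and in the authors' table (−1.09 to −1.13), and FST under the last 3 of these (−1.01 to −1.16). GDF15 (0.90 ± 0.22), ACVR1 (0.95 ± 0.18), BMPR1A (0.92 ± 0.25) and TSC22D1 (0.89 ± 0.21) were higher with it, with adjusted p between 0.0169 and 0.0408. All 7 had an adjusted p above 0.05 when any 1 array of either precursor was left out (0.0667 to 0.175). The dimmer ACVR1 probe was at least 2.575-fold lower with hsa-miR-205-5p, the other way, with no test for the reason given above. BMPR1A had 2 further kept probes, at −0.10 and 0.83 (adjusted p = 0.849 and 0.159), and the mean of its probes was 0.55. The activin subunits INHBA (−0.32 ± 0.15, adjusted p = 0.152) and INHBB (0.47 ± 0.26, adjusted p = 0.216) and the antagonist NOG (0.52 ± 0.34, adjusted p = 0.276) did not pass.

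**Figure D3:**
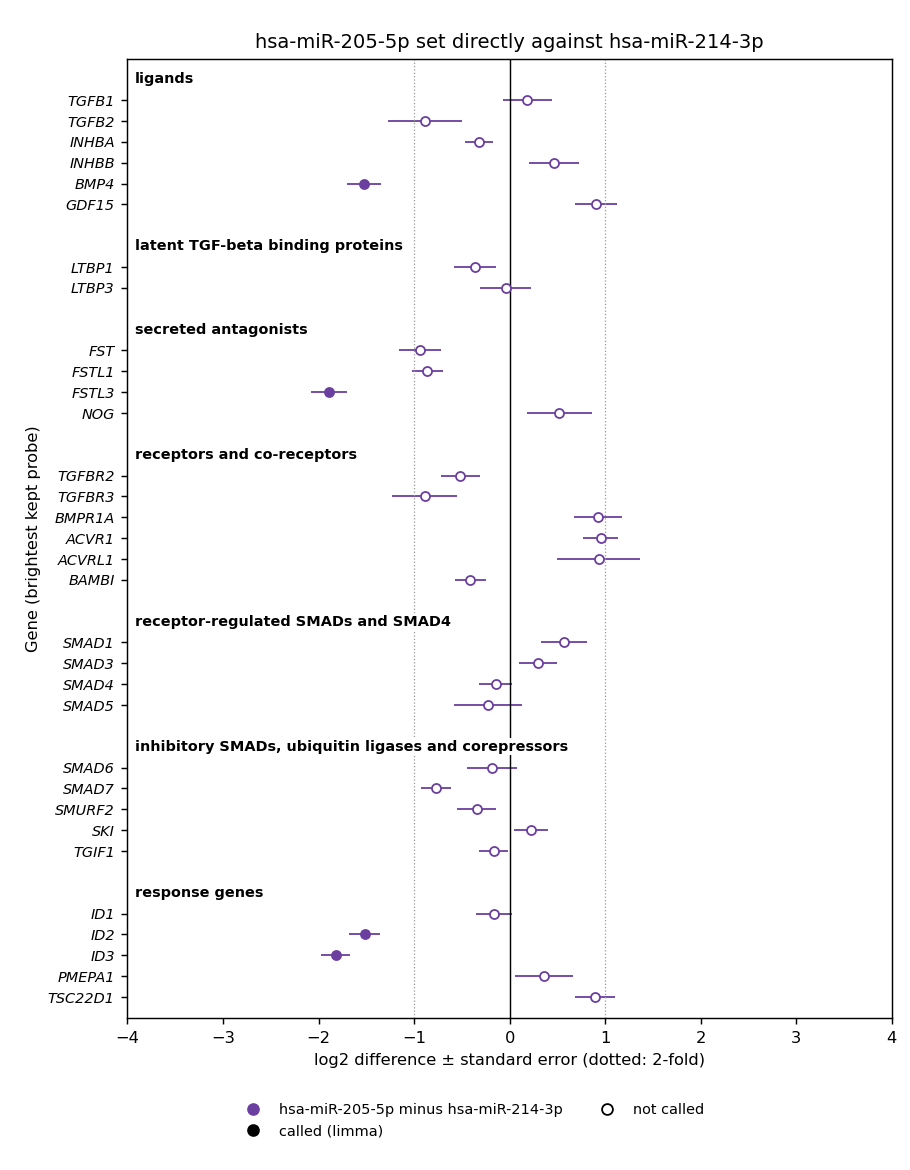
Log2 difference between the precursors, hsa-miR-205-5p less hsa-miR-214-3p (x axis, ± the standard error from limma, 2 arrays per group) of the 32 measurable pathway genes by role (y axis), with filled points for calls and dotted lines at 2-fold. The 4 filled points, BMP4, FSTL3, ID2 and ID3, all lie left of −1.5, and the highest value is 0.95 for ACVR1.

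Genes regulated by the pathway were taken from lists drawn up by name, again with earlier results of these data known. Of 20 TGF-beta target genes, 18 were measurable (CDKN2B and COL1A1 had no kept probe). With hsa-miR-205-5p 1 was lower and 3 were higher than with scrambled, against 7.98% and 4.78% of all genes, and with hsa-miR-214-3p 0 were lower and 3 were higher, against 2.03% and 1.09%. Their median log2 fold changes were −0.04 and 0.51, where those of all genes were 0.08 and −0.01. TAGLN, an actin-binding protein of contractile cells, stood at 2.36 and 2.31 with scrambled, 1.504 and 1.46 with hsa-miR-205-5p and 3.68 and 3.77 with hsa-miR-214-3p. It lay on opposite sides of scrambled with the 2 precursors. With hsa-miR-214-3p TAGLN rose by 1.39 ± 0.15 (limma, adjusted p = 0.0275) and EDN1, the endothelin precursor, by 1.31 ± 0.15 (adjusted p = 0.0303). With hsa-miR-205-5p TAGLN had a difference of −0.85 (adjusted p = 0.0201), under the 2-fold limit, and was not called. A second, dimmer TAGLN probe was at 0.81 with hsa-miR-214-3p (limma, adjusted p = 0.0767) and not called. The second, dimmer EDN1 probe was at 1.67 with hsa-miR-214-3p (adjusted p = 0.115), also not called. With hsa-miR-205-5p it was at −1.44, with 1 of 2 arrays well above background, while the brighter EDN1 probe was at 0.75. The hsa-miR-214-3p calls of TAGLN and EDN1 were kept without scrambled replicate 2 and lost without any other array, with adjusted p between 0.0532 without scrambled replicate 1 and 0.285 without hsa-miR-214-3p replicate 2.

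With hsa-miR-205-5p the target genes CCN2 and IL11 were called higher and KLF10 lower. The third counted as higher is PDGFB, described below with no test. CCN2, the connective tissue growth factor, stood at 2.00 and 2.45 with scrambled, 3.67 and 3.76 with hsa-miR-205-5p and 2.58 and 2.48 with hsa-miR-214-3p. Only the hsa-miR-205-5p arrays lay clear of the scrambled ones by more than 1 log2 unit, and CCN2 rose by 1.49 ± 0.21 (limma, adjusted p = 0.0125). IL11, a cytokine, rose by 1.24 ± 0.21 (adjusted p = 0.0183). PDGFB, a growth factor chain, stood at −2.65 and −2.06 with scrambled and −0.99 and −1.35 with hsa-miR-205-5p, with 1 array well above background in each of these groups, and its probe was kept only through the hsa-miR-214-3p arrays. KLF10, an early TGF-beta-induced zinc finger factor, fell by 1.34 ± 0.27 (adjusted p = 0.0268), and its difference with hsa-miR-214-3p was −1.42 ± 0.27 (adjusted p = 0.0588). The KLF10 call was lost without any 1 of the 6 arrays (adjusted p from 0.0517 without scrambled replicate 2 to 0.114 without hsa-miR-205-5p replicate 2). CCN2 was lost without hsa-miR-205-5p replicate 1 or 2 (0.0527 and 0.0698), and IL11 without any array of either precursor (0.0606 to 0.0801). Under scaling to the array median IL11 was no longer called, at 0.85.

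Directly compared, 4 target genes were lower with hsa-miR-205-5p than with hsa-miR-214-3p and 2 were higher, where 11.3% and 9.18% of all genes were. TAGLN differed by −2.25 ± 0.15, TPM1, a tropomyosin, by −1.90 ± 0.36 and COL4A1, a basement membrane collagen, by −1.59 ± 0.30 (limma, adjusted p between 0.0038 and 0.0160). IL11 was higher by 1.73 ± 0.21 (adjusted p = 0.0056) and CCN2 by 1.19 ± 0.21 (adjusted p = 0.0128), though under scaling to the array median CCN2 was at 0.96 and no longer called. The TAGLN call was kept in all 6 fits that left out 1 array (adjusted p of at most 0.0498), and the IL11 call was lost only without hsa-miR-214-3p replicate 2 (0.0591). CCN2, TPM1 and COL4A1 were lost without either hsa-miR-205-5p or either hsa-miR-214-3p array, with adjusted p between 0.0546 and 0.102.

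Of 6 further BMP target genes, ATOH8, a helix-loop-helix factor, was the only measurable one, and ID4, MSX1, MSX2, HEY1 and DLX2 had no kept probe. ATOH8 stood at 1.61 and 1.44 with scrambled, 0.33 and −0.37 with hsa-miR-205-5p and 2.70 and 2.77 with hsa-miR-214-3p. The 3 groups did not overlap. ATOH8 fell by 1.54 ± 0.26 with hsa-miR-205-5p (2.91-fold, limma, adjusted p = 0.0192), its difference with hsa-miR-214-3p was 1.21 ± 0.26 (adjusted p = 0.0797), and the precursors differed by −2.75 ± 0.26 (6.74-fold, adjusted p = 0.0041). The last call was kept in all 6 fits that left out 1 array, while the fall with hsa-miR-205-5p was kept only without hsa-miR-205-5p replicate 1 or scrambled replicate 1, with adjusted p up to 0.067 without hsa-miR-205-5p replicate 2, and 0.0601 without either hsa-miR-214-3p array.

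**Figure D4:**
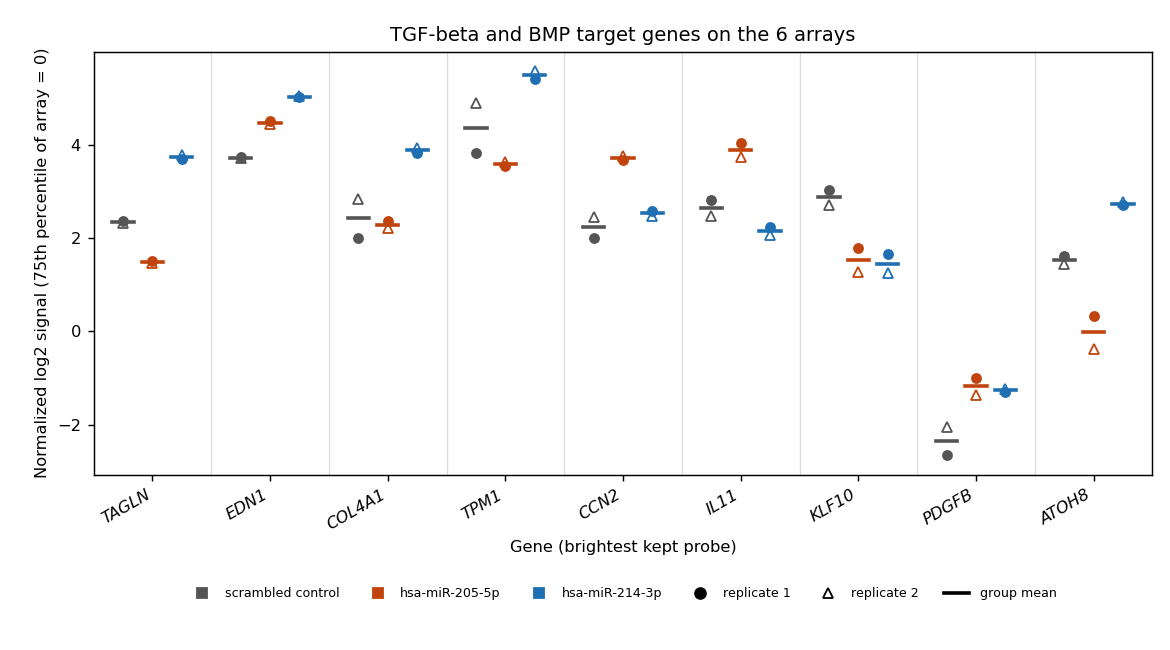
Normalized log2 signal (y axis, 0 is the array's 75th percentile) of 8 TGF-beta target genes and ATOH8 (x axis) on each of the 6 arrays, drawn as in the plot of the antagonists, ligands and response genes. TAGLN and ATOH8 run from low with hsa-miR-205-5p through scrambled to high with hsa-miR-214-3p, while CCN2 and IL11 are highest with hsa-miR-205-5p.

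Another 69 components of the pathway were listed by name, from further ligands to cofactors and ubiquitin ligases, of which 34 were measurable. With hsa-miR-205-5p 2 were lower and 2 higher than with scrambled, and with hsa-miR-214-3p 1 was lower and 0 were higher. This made 11.8% and 2.94% called in either direction, where 12.8% and 3.12% of all genes were. Their middle log2 fold changes (medians) were 0.09 and −0.14, and those of all genes 0.08 and −0.01. TGIF2, a SMAD corepressor, was at least 2.02-fold lower with hsa-miR-205-5p, where it was not well above background (limma, adjusted p = 0.0110), and PPP2R1A, a scaffold subunit of protein phosphatase 2A, fell by 1.55 ± 0.16 (adjusted p = 0.0085). BMP6, not well above background with scrambled, was at least 1.62-fold higher with hsa-miR-205-5p, where 1 array was well above background. It is 1 of the 2 counted as higher, but its probe was kept only through the hsa-miR-214-3p arrays, so its p is not given. NRROS, which anchors latent TGF-beta, rose by 1.25 ± 0.32 (adjusted p = 0.0484). TGFBRAP1, a protein that associates with TGF-beta receptors, fell by 1.31 ± 0.15 with hsa-miR-214-3p (adjusted p = 0.0315). Directly compared, 2 were lower with hsa-miR-205-5p (TGIF2 and the procollagen protease BMP1, the latter by −1.04) and 3 higher (RBX1, a ubiquitin ligase subunit, by 1.23, NRROS by 1.15 and TGFBRAP1 by 1.02), 14.7% in all, where 20.5% of all genes were called. Among the fits that left out 1 array, PPP2R1A and TGIF2 were lost against scrambled only without hsa-miR-205-5p replicate 2 (adjusted p = 0.0579 and 0.063). NRROS was kept only without scrambled replicate 1 (0.0126) and TGFBRAP1, with hsa-miR-214-3p, only without scrambled replicate 2 (0.0235). The direct calls were all lost without hsa-miR-214-3p replicate 1 or 2 (0.0686 to 0.176).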

How the data were processed

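MDA-MB-231 samples were measured on 6 arrays, 2 per group, on 1 slide, so no slide or scan block was possible. The authors deposited Agilent Feature Extraction output (version 11.0 in their processing notes), in which the processed signal is a linear intensity per spot, after subtraction of background and removal of spatial trends, with 0 saturated spots here. A table of log2 values was deposited too, and its columns hold identical sorted values, as after quantile normalization. Deposited flags of other kinds (0 or 1 per spot) mark spots well above background, saturated or outlying. For the arrays the paper's methods give limits of 0.05 for p and of 2-fold for the change, and name no test. Their general statistics section gives a two-tailed t-test.

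Control spots and between 245 and 463 outlier spots per array were dropped, spots were averaged by probe, log2 was taken and the array's 75th percentile (35.1 to 58.0 in processed intensity) was subtracted. Of 50599 probes 18468 were kept, 14712 were well above background on all 6 arrays, and 83.3% of the kept probes matched a RefSeq symbol. limma 3.58.1 in R 4.3.3 was fitted to all 6 arrays, with 3 residual and 2.473 prior degrees of freedom, and a gene was its brightest kept probe. With 2 arrays per group, the number of arrays limits the precision. Scripts were tested on simulated data. Figures were drawn with matplotlib 3.10.9.

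Genes called in a comparison, and FSTL1, FST, INHBA, TGFB1, TGFBR1, TGFBR2, SMAD2, SMAD3 and SMAD4, were given by array where measurable, and further lists by at most 5 called genes per list and comparison. ID1 by array, and array values of target genes, were added after the values were seen. The genes and lists were chosen with earlier results of these data known. normexp was run on median spot signals, since the mean was not among the columns. Alternatives were other background correction, scaling, filters, the authors' table, a fit on 4 arrays, a replicate block, trend and robust spread, leaving out each array, the methods' t-test, unadjusted p, no limit on fold change and averaged probes. For the lists of further genes, leaving out each array, median scaling and the block were chosen after seeing the data. The array design predates GRCh38.p14, which was used for names and for the printed sequences. The values of 1 target gene are not reported here, though the counts over its list include it.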

Additional observations from a re-analysis of the deposited data

How the results depend on the processing

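No called pathway gene changed direction under any of 21 settings. With no filter on dim probes, limma called 1 gene lower and 1 higher with hsa-miR-205-5p (ID2 and FSTL1; main 3 and 3) and 0 and 0 with hsa-miR-214-3p (main 1 lower, 2 higher), where 2 and 5 passed at an unadjusted p. Scaling to the array median moved the median over all kept probes to −0.335, −0.17 and −0.13 for hsa-miR-205-5p against scrambled, hsa-miR-214-3p against scrambled and the direct comparison, and gave 5 lower and 2 higher with hsa-miR-205-5p, 6 lower with it than with hsa-miR-214-3p, and 2 lower and 1 higher with hsa-miR-214-3p. normexp and quantile normalization each gave 4 higher with hsa-miR-214-3p, and quantile normalization and the authors' table gave 6 lower in the direct comparison (main 4). A limma fit on only the 4 arrays compared called 1 higher with hsa-miR-205-5p and 0 either way with hsa-miR-214-3p, where 2 lower and 5 higher passed at an unadjusted p. The methods' t-test at unadjusted p called 1 higher with hsa-miR-205-5p and 2 lower and 4 higher with hsa-miR-214-3p, and after Benjamini-Hochberg adjustment 0 against scrambled with either. limma at unadjusted p called 2 lower and 5 higher with hsa-miR-214-3p, averaged probes gave 2 lower there, and without a fold limit 7 were lower and 4 higher with hsa-miR-205-5p than with hsa-miR-214-3p. Every count of 2 lower with hsa-miR-214-3p against scrambled in this paragraph is TSC22D1 and ACVRL1. The ACVRL1 probe was kept only through the scrambled arrays, so its part in these counts is no test. With 1 array left out, which leaves fewer residual degrees of freedom, the counts were 0 to 4 lower and 0 to 3 higher with hsa-miR-205-5p, 0 to 1 lower and 0 to 3 higher with hsa-miR-214-3p, and 1 to 5 lower in the direct comparison. The lone array of a group was then assumed to vary like the other groups.

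The sample labels number the replicates of each group, but the numbers were not shown to pair samples: the deviations of same-numbered arrays correlated at 0.109, 0.008 and −0.051 over the 3 pairs of groups. With the replicate block limma called 0 pathway genes lower and 0 higher with hsa-miR-214-3p, where 2 and 5 passed at an unadjusted p (FSTL1 adjusted p = 0.0723, FST 0.0951, TSC22D1 0.088). The 2 lower again include ACVRL1, kept only through the scrambled arrays. With the block 0 TGF-beta target genes were higher with hsa-miR-214-3p (6 at an unadjusted p). Of the further components 1 was higher with hsa-miR-205-5p and 0 were lower with hsa-miR-214-3p (1 at an unadjusted p). With the block NRROS (adjusted p = 0.0783, and 0.068 directly) was no longer called, nor were TAGLN, EDN1 and TGFBRAP1 with hsa-miR-214-3p (0.0805 to 0.0815), and FST, GDF15 and BMPR1A no longer passed between the precursors (0.0502, 0.0561 and 0.0688).

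Uncalled differences of pathway genes often changed sign under at least 1 setting: 12 of 26 with hsa-miR-205-5p (ACVR1, GDF15, ID1, LTBP3, SMAD4, SMAD5, SMAD6, SMURF2, TGFB1, TGFB2, TGFBR2 and TGIF1; 10 under median scaling and 11 with 1 array left out), 7 of 29 with hsa-miR-214-3p (ACVR1, BAMBI, LTBP1, LTBP3, SMAD4, TGFB1 and TGFBR3) and 6 of 28 between the precursors (ACVR1, ACVRL1, LTBP3, SMAD4, TGFB1 and TGIF1). Among them were TGFB1 with hsa-miR-205-5p (−0.34 under median scaling, and with 1 array left out from −0.29 without scrambled replicate 2 to 0.39 without scrambled replicate 1, with −0.028 without hsa-miR-205-5p replicate 1) and with hsa-miR-214-3p (from −0.48 without scrambled replicate 2 to 0.21 without scrambled replicate 1), and SMAD4 with hsa-miR-205-5p (−0.33 under median scaling, −0.14 with averaged probes, and from −0.057 without hsa-miR-205-5p replicate 1 to 0.18 without replicate 2, with −0.023 without scrambled replicate 1) and with hsa-miR-214-3p (−0.16 with averaged probes). The same held for TGFBR2 with hsa-miR-205-5p (from −0.24 without scrambled replicate 1 to 0.17 without scrambled replicate 2, with 0.030 without hsa-miR-205-5p replicate 2) and for ACVR1 between the precursors (−0.41 with averaged probes). The cause was not tested.

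For the further lists, median scaling gave 4 TGF-beta target genes lower and 1 higher with hsa-miR-205-5p than with scrambled and 1 higher than with hsa-miR-214-3p, and 5 further components lower and 1 higher with hsa-miR-205-5p than with scrambled and 1 higher than with hsa-miR-214-3p. With 1 array left out, TGF-beta target genes gave 0 to 1 lower and 0 to 3 higher with hsa-miR-205-5p, 0 to 6 higher with hsa-miR-214-3p, and 2 to 4 lower and 0 to 2 higher in the direct comparison. The further components gave 0 to 5 lower and 0 to 2 higher, 0 to 2 lower and 0 to 2 higher, and 0 to 3 lower and 0 to 4 higher in these comparisons, and the BMP target genes 0 to 1 lower with hsa-miR-205-5p. Genes with no kept probe cannot be told to be unchanged.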
